A study of Mus musculus with 24 samples.

Results

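Recombinant mouse ANGPTL4 was compared with vehicle in differentiating C2C12 cells after 2 days. C2C12 is a clonal mouse myoblast line whose cells leave the cell cycle and fuse into multinucleated myotubes when serum is lowered. The comparison holds 8 of the study's 24 libraries, taken by their group labels: 4 of cells given ANGPTL4 at 10 ng/mL and 4 of cells given vehicle. All cells were of the WT line, were grown in 10% fetal bovine serum and were moved to 2% horse serum to differentiate. What the vehicle contained was not given in the sources used here. Values of further groups are given only where named: 4 libraries of cells given 100 µM albumin-bound linoleic acid (LA, 18:2n6) at day 2, and 4 libraries each of vehicle and ANGPTL4 at day 6. All 24 libraries, those of LA at day 6 among them, were fitted together and shared a common estimate of the spread. Nothing in the labels says whether the 4 libraries of a group came from separate cultures. The p-values therefore measure the spread between libraries within groups over all 24, which may be technical.

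ANGPTL4 is a secreted protein best known for inhibiting lipoprotein lipase, the enzyme that releases fatty acids from circulating triglyceride, and fatty acids raise its transcription in muscle. Its fibrinogen-like domain binds integrins and syndecans at the cell surface, and it has also been tied to the Wnt co-receptor LRP6. In the canonical Wnt pathway, Frizzled and LRP receptors restrain a complex of APC, AXIN and GSK3B that marks β-catenin for destruction, and β-catenin then acts with LEF and TCF factors. This pathway helps myoblasts commit to differentiation, beside the factors MYOD1, MYF5, MYOG and MEF2C. The study's title names both LA-induced ANGPTL4 and this pathway, and the comparison asks which transcripts differ when the protein itself is supplied.

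Libraries were made from transcript 3′ ends. Vehicle libraries held 9.85 to 14.5 M counts (M, mega) and ANGPTL4 libraries 13.2 to 20.6 M. The means were 11.97 ± 1.98 M and 16.65 ± 3.45 M (SD, n = 4), a difference of 4.67 M (2-sided exact permutation p = 0.0857 over 70 splits). In a principal component analysis of the 12 day 2 libraries, the first component (30.3% of variance) placed vehicle at −19.9 to −12.04 and ANGPTL4 replicates 1 to 3 at 14.4 to 19. ANGPTL4 replicate 4 lay at 4.29, between its group and vehicle, and LA replicate 3 lay at 20.8 while the other LA libraries lay at −4.28 to −2.58. ANGPTL4 replicate 4 and LA replicate 3 thus stand apart from their groups. Of 15 skeletal muscle markers, 15 were tested, so the cells carried the transcripts of their label.

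Of 12994 genes tested with edgeR's quasi-likelihood test, 1276 (9.82%) were called at an adjusted p under 0.05. Transcripts rose for 502 genes (3.86%) and fell for 774 (5.96%). Without ANGPTL4 replicate 4, 161 rose and 660 fell, and 95 rose and 590 fell when these 8 libraries were fitted alone. The 2 directions differed in size. Among called genes, 0 rose by 2-fold or more, with a median log2 fold change of 0.24 and a highest of 0.64, in Serpinb6b, a call lost without ANGPTL4 replicate 2, 3 or 4 or vehicle replicate 1 or 4 (adjusted p from 0.0633 to 0.132). By contrast 155 fell at least 2-fold, the lowest by 3.09 on the log2 scale, although 133 of these lay under 5 CPM in vehicle (CPM, counts scaled to equal library size). Libraries of the 2 groups did not overlap for 1897 genes (14.6%), 871 higher and 1026 lower with ANGPTL4. When any 1 of the 8 libraries was left out in turn, 389 genes were called in every fit, 67 that rose and 322 that fell. Calls that did so are said below to have held. The share of calls that rose, 39.3%, was 27.1% with DESeq2's size factors and 54.2% with scaling to library totals alone. Where groups of genes are described, fewer cells of a type and less RNA per cell cannot be told apart.

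**Figure D1:**
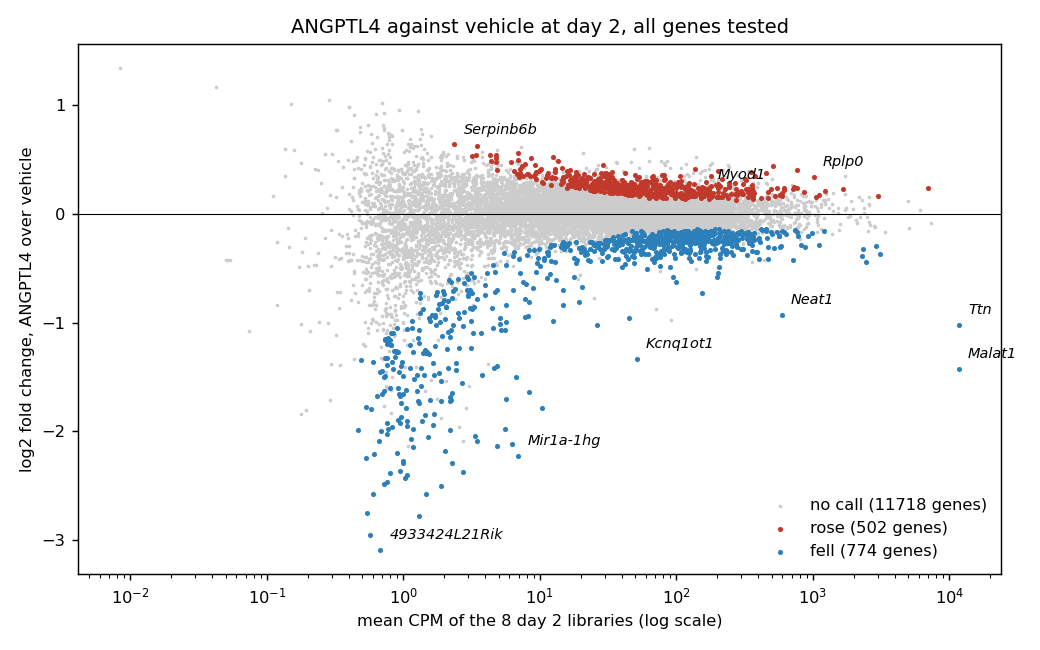
Each point is 1 of 12994 genes, with the mean CPM of the 8 libraries on a log axis against the log2 fold change of ANGPTL4 over vehicle. The 502 genes that rose lie at or below 0.64, whereas the 774 that fell reach −3.09. The deepest falls lie mostly at low abundance, with Ttn and Malat1 as abundant exceptions.

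The largest falls of abundant RNA were in nuclear noncoding transcripts and titin. Malat1, a nuclear-speckle RNA, measured 15968, 14258, 16531 and 21969 CPM in vehicle replicates 1 to 4. With ANGPTL4 it measured 4543, 4887, 4360 and 11732 CPM. The groups did not overlap, but ANGPTL4 replicate 4 sat well above its group. The log2 change was −1.43 ± 0.43 (SE, adjusted p = 0.0447), and the call was lost on leaving out any 1 library except ANGPTL4 replicate 4 (adjusted p from 0.0561 to 0.106) and with a smooth trend of transcript length and end GC removed (adjusted p = 0.102). Neat1, the RNA that builds paraspeckles, measured 753, 609, 809 and 935 CPM in vehicle against 336, 370, 408 and 519 CPM. It fell by 0.93 on the log2 scale (SE 0.18, adjusted p = 0.00644), and the call held.

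Further noncoding RNAs moved the same way. Kcnq1ot1, the long imprinted RNA that silences neighbours of Kcnq1, measured 56.9, 65.8, 76.9 and 93.5 CPM in vehicle against 25.6, 20.02, 23.3 and 48.99 CPM. It fell by 1.33 (SE 0.33, adjusted p = 0.0195), and the call was lost without vehicle replicate 4 (adjusted p = 0.0569) and with the length and GC trend removed (−0.67, adjusted p = 0.0793). Airn, the imprinted RNA antisense to Igf2r, changed by −0.95 (adjusted p = 0.0224), a call lost without ANGPTL4 replicate 1 or 2 or vehicle replicate 3 (adjusted p from 0.056 to 0.0792). Both overlap a coding gene on the other strand, and whether counting used strand is not given, so their reads cannot be told apart from that gene's. In the list of long noncoding and imprinted RNAs, 5 of 27 fell (18.5%, against 5.96% of all genes) and 0 rose. Their median change was −0.02, against 0.02 over all genes tested, so the list as a whole did not shift.

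Mir1a-1hg, the host transcript of the muscle miRNA miR-1a-1, measured 11.4, 10.05, 12.2 and 11.9 CPM in vehicle and 1.31, 2.03, 2.38 and 4.36 CPM with ANGPTL4. It fell by 2.23 (SE 0.47, adjusted p = 0.0087), was lower in 16 of 16 pairs of libraries, and was called in all 19 alternatives. Mir1a-1hg has no annotated length, so the alternative with the length and GC trend removed did not correct it. Of 27 tested rows named for a miRNA locus or host, 6 fell and 0 rose, where 5.96% of all genes fell and 3.86% rose. Mir1a-1 and its host Mir1a-1hg are both among the 6. Rows with few counts may have passed the count filter only through a group where they were high. The counts of 6 and 0 therefore do not measure the response. The loci Mir23a, Mir365-2 and Mir1a-1 were among the 6 that fell, chosen after their values were seen. Mature products of these 3 hairpins are shown because their loci fell. For Mir1a-1 only the 5′ product is shown, so this need not be the full set of its products. They are from RefSeq (GRCm38.p6), 5′ to 3′, with the seed (bases 2 to 8) in capitals. No seed is shared by any pair of those shown.
mmu-miR-23a-5p (chr8:84208527-84208548, + strand): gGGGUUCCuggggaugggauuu
mmu-miR-23a-3p (chr8:84208563-84208583, + strand): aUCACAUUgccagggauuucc
mmu-miR-365-2-5p (chr11:79726428-79726450, + strand): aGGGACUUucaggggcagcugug
mmu-miR-365-3p (chr11:79726467-79726488, + strand): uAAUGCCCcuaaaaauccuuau
mmu-miR-1a-1-5p (chr2:180389057-180389079, + strand): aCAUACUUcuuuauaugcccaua
A 3′ mRNA library does not measure mature miRNAs. Reads at these loci come from polyadenylated precursor or overlapping transcripts, and they were few. Mir23a held 8 to 18 counts per vehicle library and 1 to 5 per ANGPTL4 library (log2 change −2.75, SE 0.50, adjusted p = 0.00245). Mir1a-1 held 7 to 14 against 2 to 6 counts (−1.78, adjusted p = 0.0254), a call lost without ANGPTL4 replicate 1 or 2 or vehicle replicate 2 or 3 (adjusted p from 0.0554 to 0.0631). Mir365-2 held 16 to 21 against 4 to 15 counts (−1.42, adjusted p = 0.0335), a call lost without ANGPTL4 replicate 1 or 2 or vehicle replicate 1, 3 or 4 (adjusted p from 0.0621 to 0.0855).

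**Figure D2:**
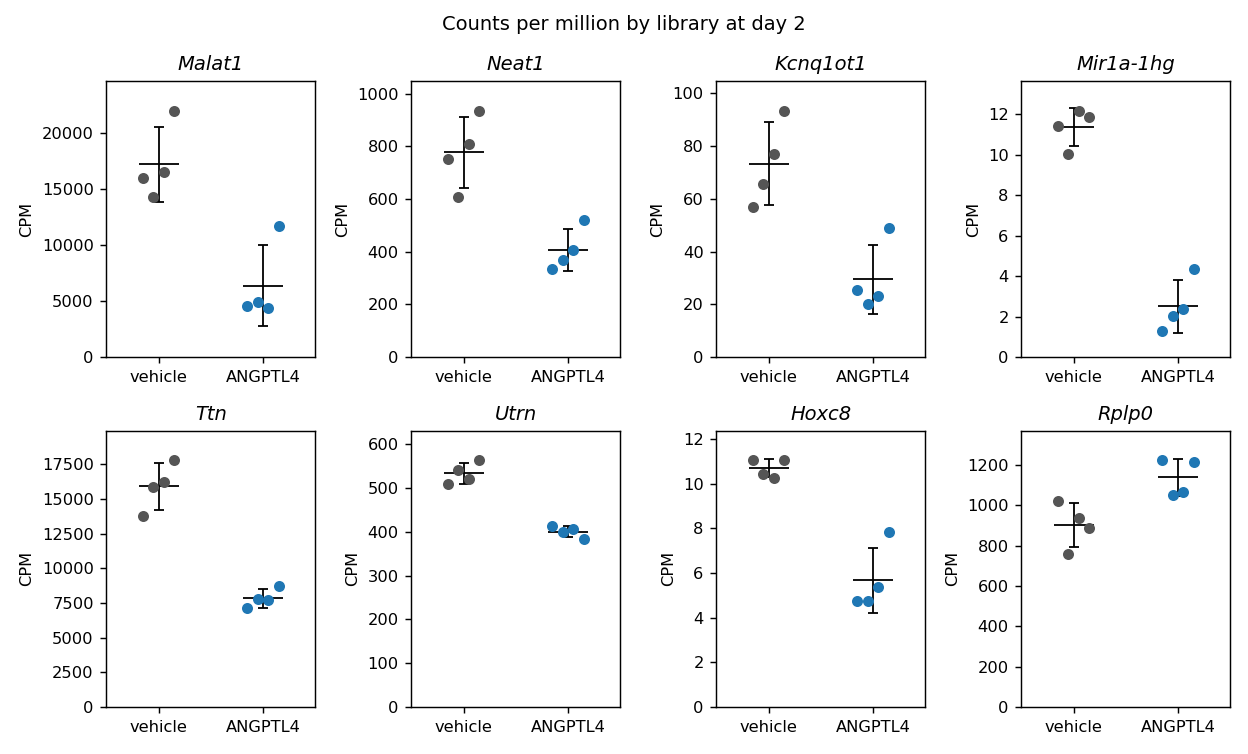
CPM in each library for 8 genes, with vehicle in grey and ANGPTL4 in blue, replicates 1 to 4 from left to right, and the mean ± SD (n = 4) as a bar. The groups do not overlap in any of the 8 panels, and ANGPTL4 replicate 4 is the ANGPTL4 library nearest to vehicle for Malat1, Neat1, Kcnq1ot1, Mir1a-1hg, Ttn and Hoxc8.

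Where the higher group reached 5 CPM, other large falls were in Lrrtm2, a synaptic adhesion protein, and Muc6, a secreted mucin, both low in these cells. Lrrtm2 measured 16.6, 13.1, 15.01 and 18.6 CPM in vehicle against 3.01, 3.65, 3.01 and 9.61 CPM (log2 change −1.78, SE 0.43, adjusted p = 0.0157). Muc6 measured 5.39, 5.43, 5.64 and 5.61 CPM against 1.60, 1.35, 2.27 and 2.73 CPM (−1.48, SE 0.31, adjusted p = 0.00642). Both calls held. The falls with the lowest p-values were smaller: Fmn1 (formin 1, an actin nucleator) fell by 0.37, the cytoskeletal kinase gene Cdc42bpa by 0.31, the amyloid precursor adaptor Apbb2 by 0.40, Spaca6 by 0.70 and the chromatin remodeller Chd2 by 0.35. Each of these 5 was lower in 16 of 16 pairs with an adjusted p of 0.000649 to 0.00184, and each call held. With the length and GC trend removed, Fmn1 was at −0.13 (adjusted p = 0.191), and Cdc42bpa and Chd2 stayed called at −0.16 and −0.21. Rises with the lowest p-values were in Ubb-ps (0.36), the secreted protease Htra3 (0.38), the PDZ protein Tax1bp3 (0.45), Rplp0, described below, and the small GTPase Rab34 (0.34). Their adjusted p ran from 0.000649 to 0.00383, and all 5 held. The glutathione transferase Mgst3 rose by 0.43 (adjusted p = 0.00391) and held too. Rab34 and Mgst3 lost their calls with the trend removed (0.20 and 0.26, adjusted p of 0.122 and 0.0747). Ubb-ps is a pseudogene of the ubiquitin gene Ubb, and its reads cannot be told apart from those of near-identical copies.

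Calls followed transcript length. Genes that fell had a median annotated transcript of 6803 nucleotides and a median gene span of 90.6 kb, against 3413 nucleotides and 24 kb over all tested genes with an annotation. Genes that rose had medians of 2054 nucleotides and 8.94 kb. Genes were put in 5 equal classes by length. Of the class with the longest transcripts (5333 nucleotides or more), 19% fell and 0.314% rose. Of the shortest class (up to 1974 nucleotides), 2.82% fell and 9.1% rose. The median log2 change fell in steps from 0.13 in the shortest class to −0.11 in the longest, and without ANGPTL4 replicate 4 these were 0.11 and −0.10. Genes that fell also had AT-richer ends: the last 500 nucleotides were 39.6% GC, against 43.8% over all tested and 47.4% for genes that rose. When a smooth trend of length and end GC was removed from each library, 417 genes were called, 104 that rose and 313 that fell, 338 of them calls of the first fit in the same direction. Library totals also differed between the groups, as given above. With every library thinned to 6.101 M counts, 713 genes were called, 174 that rose and 539 that fell. The part of length, GC content and depth in the calls was not tested beyond these fits.

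**Figure D3:**
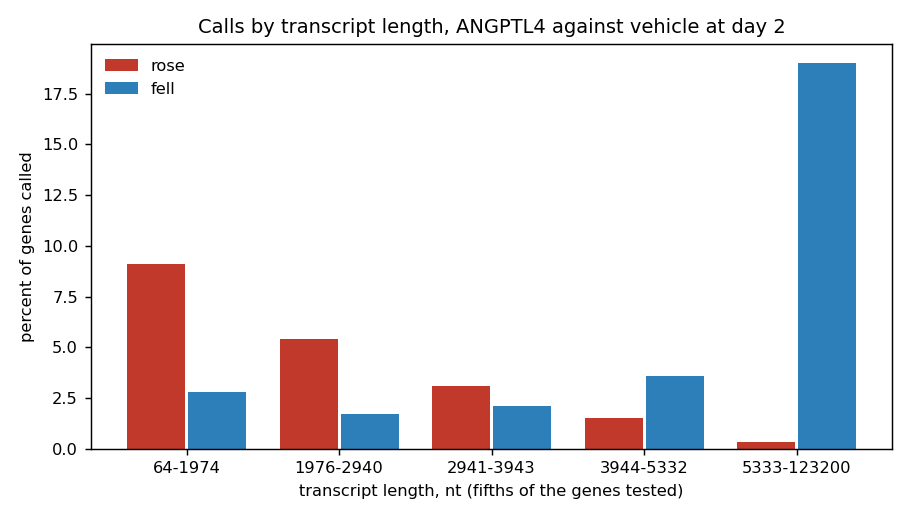
Percent of genes that rose and that fell in each of 5 equal classes of annotated transcript length. The percent that rose drops from 9.1 to 0.314 and the percent that fell is 19 in the longest class against 1.69 to 3.58 in the other four.

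Genes that fell at least 2-fold were a different set. Their median transcript was 2523 nucleotides. Of those with an annotation, 35.0% were in noncoding classes (pseudogenes and miRNAs not counted), against 3.27% of all tested genes and 0.403% of those that rose. By mean CPM over all 24 libraries, falls were most frequent at both ends of abundance. Under 1 CPM 10.9% of genes fell and 0 rose, and over 100 CPM 10.9% fell and 6.24% rose. Between 5 and 20 CPM the shares were 2.29% and 2.76%. A gene under 1 CPM on average may have passed the count filter only through a group where it was high. The shares of that class therefore do not measure the response.

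The transcripts of ANGPTL4 and of the lipase it inhibits were not called. Endogenous Angptl4 measured 18.6, 21.8, 18.8 and 21.8 CPM in vehicle and 22.4, 21.3, 21.05 and 21.6 CPM with the protein. The groups overlapped, and the log2 difference was 0.09 (SE 0.07, adjusted p = 0.463). Lpl, lipoprotein lipase itself, measured 56.9, 42.3, 44.2 and 63.4 CPM against 54.03, 54.9, 63.5 and 64.9 CPM, also with overlap (0.20, SE 0.17, adjusted p = 0.487).

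Of 15 tested receptors and binding partners of ANGPTL4, 2 fell (13.3%, against 5.96% of all genes) and 0 rose, and both calls held. Lrp6 measured 259, 263, 249 and 278 CPM in vehicle and 216, 221, 229 and 217 CPM with ANGPTL4, with no overlap. It fell by 0.25 on the log2 scale (SE 0.06, adjusted p = 0.0111). Itgav, the αV integrin subunit, measured 355, 374, 375 and 379 CPM against 318, 309, 315 and 294 CPM, again with no overlap (−0.26, SE 0.05, adjusted p = 0.00475). The β integrin subunits that pair with ligands of this kind showed no call: Itgb1 differed by 0.02 (adjusted p = 0.775) and Itgb5 by 0.02 (adjusted p = 0.891). With the length and GC trend removed, Lrp6 had an adjusted p of 0.279 and Itgav of 0.0512. Both have long transcripts, 9368 nucleotides for Lrp6.

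Along the Wnt pathway the changes were small and ran both ways. Of 14 ligands and secretion genes 1 fell (7.14%, against 5.96% of all genes). This was Wnt2b, at 3.63 to 4.12 CPM in vehicle and 2.27 to 3.18 CPM with ANGPTL4 (−0.58, SE 0.17, adjusted p = 0.0327). That call was lost without ANGPTL4 replicate 1, 2 or 3 or vehicle replicate 1, 2 or 4 (adjusted p from 0.0503 to 0.0814). Of 20 receptors and receptor regulators, Lrp6 and Znrf3 fell and Fzd2 rose (15% called, against 9.82% of all genes). Fzd2, a Frizzled receptor, measured 90.6, 89.8, 94.8 and 81.9 CPM against 98.6, 97.7, 100.9 and 109.7 CPM (0.19, SE 0.06, adjusted p = 0.0296), and was not called without ANGPTL4 replicate 3 or 4 or vehicle replicate 1, 2 or 4 (adjusted p from 0.0576 to 0.142). Znrf3, a ligase that clears Frizzled from the surface, changed by −0.24 (adjusted p = 0.0305), a call lost without ANGPTL4 replicate 1 or 2 or vehicle replicate 2 or 4 (adjusted p from 0.0565 to 0.0922). With the length and GC trend removed, Fzd2 was at 0.17 (adjusted p = 0.094) and Znrf3 at −0.13 (adjusted p = 0.295).

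Of 28 intracellular Wnt genes, 3 fell (10.7%, against 5.96% of all genes) and 0 rose. Gsk3b, the kinase of the destruction complex, measured 236, 251, 245 and 263 CPM in vehicle and 208, 218, 220 and 207 CPM with ANGPTL4 (−0.22, SE 0.05, adjusted p = 0.00581), and the call held. Apc, the scaffold of the same complex, measured 277, 284, 270 and 317 CPM against 246, 268, 246 and 215 CPM. The groups did not overlap (−0.24, SE 0.06, adjusted p = 0.0131), and the call was lost without ANGPTL4 replicate 4 or vehicle replicate 4 (adjusted p of 0.051 and 0.0612). Lef1, a DNA-binding partner of β-catenin and itself a target, measured 17.7, 18.7, 16.6 and 21.4 CPM against 17.1, 13.5, 13.9 and 14.4 CPM, with 1 of 16 pairs reversed. Its change was −0.33 (SE 0.09, adjusted p = 0.0239), lost without ANGPTL4 replicate 2 or 3 or vehicle replicate 4 (adjusted p from 0.0547 to 0.102). Once the trend was removed, Gsk3b was at −0.10 (adjusted p = 0.161) and Apc at −0.02 (adjusted p = 0.877), while Lef1 was at −0.36 (adjusted p = 0.0273). Lef1 has a transcript of 3656 nucleotides, near the median of all tested genes.

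Ctnnb1, which encodes β-catenin, measured 759.8, 748, 729.6 and 714 CPM in vehicle and 779.6, 819, 839 and 789 CPM with ANGPTL4. It was higher in 16 of 16 pairs but missed the threshold (0.13, SE 0.04, adjusted p = 0.0528). Axin2, the usual target for reading pathway output, measured 11.4, 11.1, 11.1 and 12.4 CPM against 9.99, 9.47, 10.4 and 10.4 CPM. It was lower in 16 of 16 pairs, without a call (−0.19, SE 0.10, adjusted p = 0.206). The targets Ccnd1 and Myc overlapped between groups, with differences of 0.04 (adjusted p = 0.839) and 0.07 (adjusted p = 0.589). Of 27 Wnt targets tested, 3 fell and 1 rose (14.8% called, against 9.82% of all genes), and 0 of these calls held. Of 10 secreted antagonists 1 rose (10%, against 3.86% of all genes). This was Igfbp4, which binds IGFs and also Frizzled and LRP6 (0.37, SE 0.10, adjusted p = 0.0248). That call was lost without ANGPTL4 replicate 4 or vehicle replicate 2 or 3 (adjusted p from 0.0624 to 0.108), and with the length and GC trend removed (adjusted p = 0.0574).

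**Figure D4:**
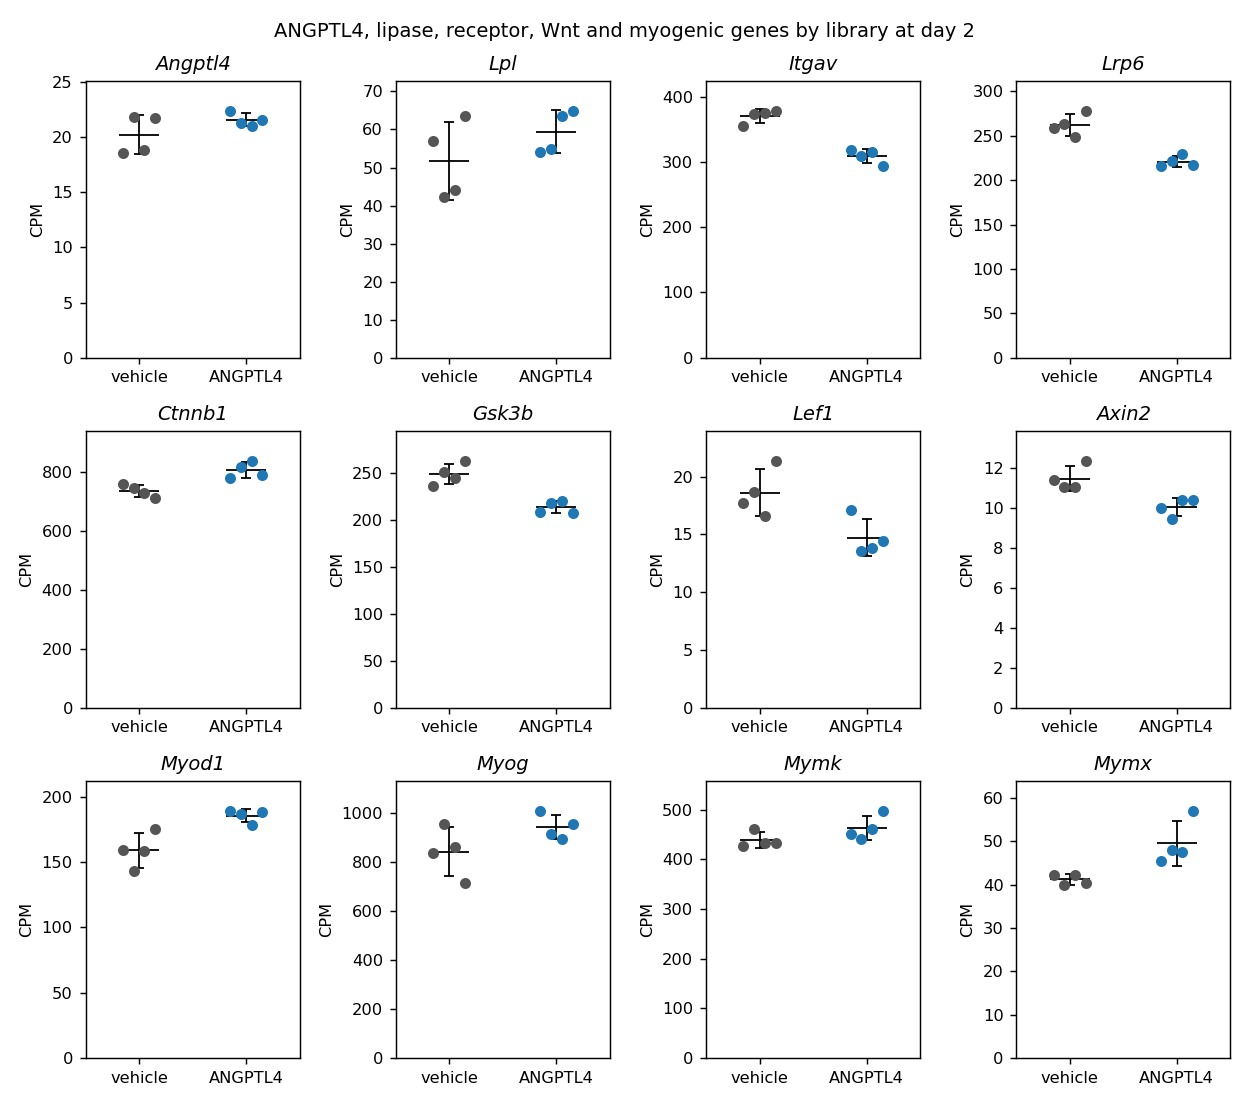
CPM in each library for 12 genes of ANGPTL4, its lipase and receptors, the Wnt pathway and myogenesis, with vehicle in grey, ANGPTL4 in blue, replicates 1 to 4 from left to right and mean ± SD (n = 4) as a bar. The groups are apart for Itgav, Lrp6, Ctnnb1, Gsk3b, Axin2, Myod1 and Mymx, and they overlap for Angptl4, Lpl, Lef1, Myog and Mymk.

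Of 30 myogenic regulators tested, 2 rose and 2 fell (13.3% called, against 9.82% of all genes), and 0 of these calls held. Myod1, which commits cells to the muscle lineage, measured 159, 143, 159 and 176 CPM in vehicle and 189, 187, 178 and 188 CPM with ANGPTL4. It rose by 0.22 (SE 0.05, adjusted p = 0.00945), and the call was lost without vehicle replicate 2 (adjusted p = 0.0537). Mef2c, a cofactor of late differentiation, measured 250.4, 228, 261 and 228 CPM against 179, 239, 225 and 175 CPM. It fell by 0.24 (SE 0.07, adjusted p = 0.0381), with 2 of 16 pairs reversed, and the call was lost without ANGPTL4 replicate 1 or 4 or vehicle replicate 1 or 3 (adjusted p from 0.0726 to 0.132). Mrtfb, a coactivator of serum response factor, fell by 0.26 (adjusted p = 0.0145), a call lost without vehicle replicate 4 (adjusted p = 0.0744). Removing the trend left Myod1 at 0.09 (adjusted p = 0.383), Mef2c at −0.17 (adjusted p = 0.209) and Mrtfb at −0.13 (adjusted p = 0.253).

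Myog, the factor that starts terminal differentiation, measured 838, 955, 863 and 714 CPM against 1010, 917, 896 and 957 CPM, and the groups overlapped (0.17, SE 0.06, adjusted p = 0.0945). Myf5 differed by 0.28 (SE 0.10, adjusted p = 0.0597). Pax7, a satellite cell factor, differed by 0.05 (adjusted p = 0.735), and Cdkn1a, the inhibitor that holds myocytes out of the cell cycle, by 0.07 (adjusted p = 0.546). Of 52 cell cycle genes tested, 0 were called, against 9.82% of all genes, with changes from −0.22 to 0.22. Jag1, a Notch ligand, was the member of the satellite cell and Notch list whose call held. It measured 50.9, 51.1, 59.01 and 58.9 CPM against 44.3, 42.4, 39.7 and 45.5 CPM (−0.35, SE 0.08, adjusted p = 0.00644).

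Of 32 fusion genes, 2 rose and 3 fell (15.6% called, against 9.82% of all genes), and 0 held. Mymx, the micropeptide that completes membrane fusion, measured 42.3, 40.01, 42.3 and 40.3 CPM in vehicle and 45.4, 48.1, 47.6 and 57.04 CPM with ANGPTL4. It rose by 0.26 (SE 0.07, adjusted p = 0.0206), a call lost without ANGPTL4 replicate 4 or vehicle replicate 2 or 4 (adjusted p from 0.0501 to 0.118). After removal of that trend it was at 0.05 (adjusted p = 0.797). Its partner Mymk measured 428, 462, 432 and 433 CPM against 452, 441, 462 and 498 CPM (0.08, adjusted p = 0.496).

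Among contractile genes, the giant sarcomere proteins titin and nebulin fell. Of 68 sarcomere genes, 4 fell (5.88%, against 5.96% of all genes) and 0 rose, with a median change of 0.02. Ttn, titin, the spring that spans the sarcomere, measured 13760, 15882, 16203 and 17801 CPM in vehicle and 7115, 7774, 7684 and 8735 CPM with ANGPTL4. It fell by 1.02 (SE 0.22, adjusted p = 0.0103) and was called in all 19 alternatives, although with the length and GC trend removed the change was −0.33 (adjusted p = 0.0277). Neb, nebulin, the ruler of the thin filament, measured 2505, 2723, 2822 and 3171 CPM against 2144, 2285, 2112 and 1722 CPM (−0.44, SE 0.10, adjusted p = 0.00859). Its call held, but with the length and GC trend removed its adjusted p was 0.661. The annotated transcripts are 106824 nucleotides for Ttn and 22489 for Neb. Acta1, skeletal actin, differed by 0.09 (adjusted p = 0.286), and Myh3, embryonic myosin heavy chain, by −0.13 (adjusted p = 0.161). The summed CPM of the 68 genes was 47902 to 52593 in vehicle and 41050 to 43582 with ANGPTL4, and without Ttn it was 34142 to 36576 against 32315 to 36467, with overlap.

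Utrn, utrophin, the homologue of dystrophin, measured 509, 541, 521 and 563.7 CPM against 414, 399.8, 406 and 383 CPM (−0.41, SE 0.07, adjusted p = 0.00257). It was called in all 19 alternatives, although with the length and GC trend removed the change was −0.19 (adjusted p = 0.0172). In the dystrophin complex list 2 of 24 fell (8.33%, against 5.96% of all genes) and 0 rose. Of 38 genes of excitation-contraction coupling and the synapse, 3 fell and 1 rose (10.5% called, against 9.82% of all genes). Ryr3, a calcium release channel of immature muscle, measured 172, 188, 201 and 196 CPM against 135, 145, 144 and 137 CPM (−0.43, SE 0.08, adjusted p = 0.00375). Jph1, junctophilin, which ties the surface membrane to the calcium store, fell by 0.23 (SE 0.05, adjusted p = 0.00573). Both calls held, but with the length and GC trend removed they were at −0.17 (adjusted p = 0.0512) and −0.18 (adjusted p = 0.057).

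Rises in genes of energy use and lipid metabolism were small. Of 37 genes of muscle energy metabolism, 3 rose (8.11%, against 3.86% of all genes) and 0 fell, and 0 held. Pgam1, a glycolytic mutase, rose by 0.34 (adjusted p = 0.0154), a call lost without vehicle replicate 2 (adjusted p = 0.0768). Ckm, muscle creatine kinase, differed by 0.23 (SE 0.10, adjusted p = 0.174). Of 48 genes of fatty acid uptake, oxidation and PPAR response, 6 rose (12.5%) and 0 fell, with a median change of 0.09, and 0 of these calls held or stayed with the length and GC trend removed. Eci1, a mitochondrial isomerase of unsaturated fatty acids, measured 17.3, 18.2, 17.5 and 17.7 CPM in vehicle and 21.2, 23, 20.4 and 23.1 CPM with ANGPTL4 (0.30, SE 0.08, adjusted p = 0.0216). The call was lost without ANGPTL4 replicate 2 or 4 or vehicle replicate 1 (adjusted p from 0.0517 to 0.0696). Plin2, a lipid droplet coat protein, rose by 0.16 (adjusted p = 0.0429), a call lost without ANGPTL4 replicate 2, 3 or 4 or vehicle replicate 2, 3 or 4 (adjusted p from 0.0664 to 0.189). The PPAR targets Cpt1a and Pdk4 differed by 0.03 (adjusted p = 0.735) and −0.02 (adjusted p = 0.936). Pgam1 and Eci1 were at 0.22 and 0.13 with that trend removed (adjusted p of 0.14 and 0.404). Of 34 sterol genes 2 rose (5.88%) and 0 fell. Of 29 lipogenic genes 1 fell (3.45%, against 5.96% of all genes) and 0 rose.

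Of 79 ribosomal protein genes, 16 rose (20.3%, against 3.86% of all genes) and 0 fell. The median change was 0.31, and 78 of 79 were above 0, against 7231 of 12994 over all genes. The summed CPM of the list was 15560 to 19967 in vehicle and 20763 to 24610 with ANGPTL4, without overlap. Rplp0, a ribosomal stalk protein, measured 1023, 759, 937 and 887 CPM against 1223, 1052, 1066 and 1215 CPM (0.34, SE 0.07, adjusted p = 0.00375). Rpl13 measured 352, 271, 335 and 268 CPM against 437, 378, 378 and 405 CPM (0.38, SE 0.08, adjusted p = 0.00501). Both calls held, among 4 of the 16 that did, and with the length and GC trend removed the changes were 0.18 and 0.28 (adjusted p of 0.0452 and 0.0278). Without ANGPTL4 replicate 4, 5 members rose, and with the length and GC trend removed 2 rose and the median was 0.14. Ribosomal protein genes have many near-identical pseudogenes, so their counts are uncertain.

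Transcripts of ribosomal proteins carry a pyrimidine run at their 5′ end, the terminal oligopyrimidine motif, through which their translation is controlled. Promoter windows from RefSeq (GRCm38.p6) matched 58 of the 79 genes. A C within 1 base of the annotated start, followed on the same strand by at least 4 further pyrimidines, was present in 19 of the 58 (32.8%). It was present in 2077 of all 32851 windows (6.32%), with some genes having several windows, and in 8.71% of the 10289 tested genes with a window. Of the 16 genes that rose 12 matched, and 3 of them, Rpl15, Rpl18 and Rps18, held the motif. They are shown as the genes that rose and held it, 25% of those that matched. Each line has 12 bases before the annotated start and 18 from it, with the pyrimidine run from the matched C onward in capitals. Any pyrimidines just before that C are in lower case.
Rpl15 (chr14:18270969-18270998, − strand): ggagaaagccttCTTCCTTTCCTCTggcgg
Rpl18 (chr7:45718059-45718088, + strand): gtctcgcaggccgCTCTTTCCCCgcccact
Rps18 (chr17:33955648-33955677, − strand): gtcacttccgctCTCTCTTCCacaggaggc
A match describes these letters only. Rps18 rose by 0.40 (adjusted p = 0.0239), Rpl15 by 0.26 (adjusted p = 0.0288) and Rpl18 by 0.35 (adjusted p = 0.0469). The call of Rps18 was lost without ANGPTL4 replicate 2, 3 or 4 or vehicle replicate 2 or 4 (adjusted p from 0.0574 to 0.0891). That of Rpl15 was lost without ANGPTL4 replicate 4 or vehicle replicate 2 or 4 (from 0.0775 to 0.114), and that of Rpl18 without ANGPTL4 replicate 1, 2 or 4 or vehicle replicate 2, 3 or 4 (from 0.0645 to 0.159). In the fit without the length and GC trend, none of these 3 was called (adjusted p from 0.151 to 0.387).

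Of nuclear genes of oxidative phosphorylation, 13 of 81 rose (16%, against 3.86% of all genes), 0 fell, 80 were above 0 and the median change was 0.21. Their summed CPM was 6992 to 7431 in vehicle and 7788 to 8580 with ANGPTL4. Cyc1, cytochrome c1 of complex III, measured 118, 112, 121 and 95.5 CPM against 131, 128, 133 and 152 CPM (0.29, SE 0.07, adjusted p = 0.0102), and the call held. Atp5pb, a stalk subunit of ATP synthase, rose by 0.26 (adjusted p = 0.0117), a call lost without vehicle replicate 2 (adjusted p = 0.0622). Of 78 mitochondrial ribosome genes, 9 rose (11.5%) and 0 fell, with a median of 0.155. Mrpl20 had the lowest p-value among them (0.38, adjusted p = 0.0124), a call lost without ANGPTL4 replicate 1 (adjusted p = 0.0523). Of 39 proteasome genes, 5 rose (12.8%) and 0 fell, with a median of 0.14. The core subunits Psmb4 (0.30, SE 0.06, adjusted p = 0.00601) and Psmb3 (0.36, SE 0.09, adjusted p = 0.013) held. Cyc1, Mrpl20, Psmb4 and Psmb3 lost their calls once the trend was removed (adjusted p from 0.0574 to 0.308). Atp5pb has no annotated length, so that fit did not correct it and its call there is no check. With the length and GC trend removed, 2 genes of oxidative phosphorylation, 2 of the mitochondrial ribosome and 0 of the proteasome rose, and the medians of the 3 lists were 0.06, 0.04 and 0.01.

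**Figure D5:**
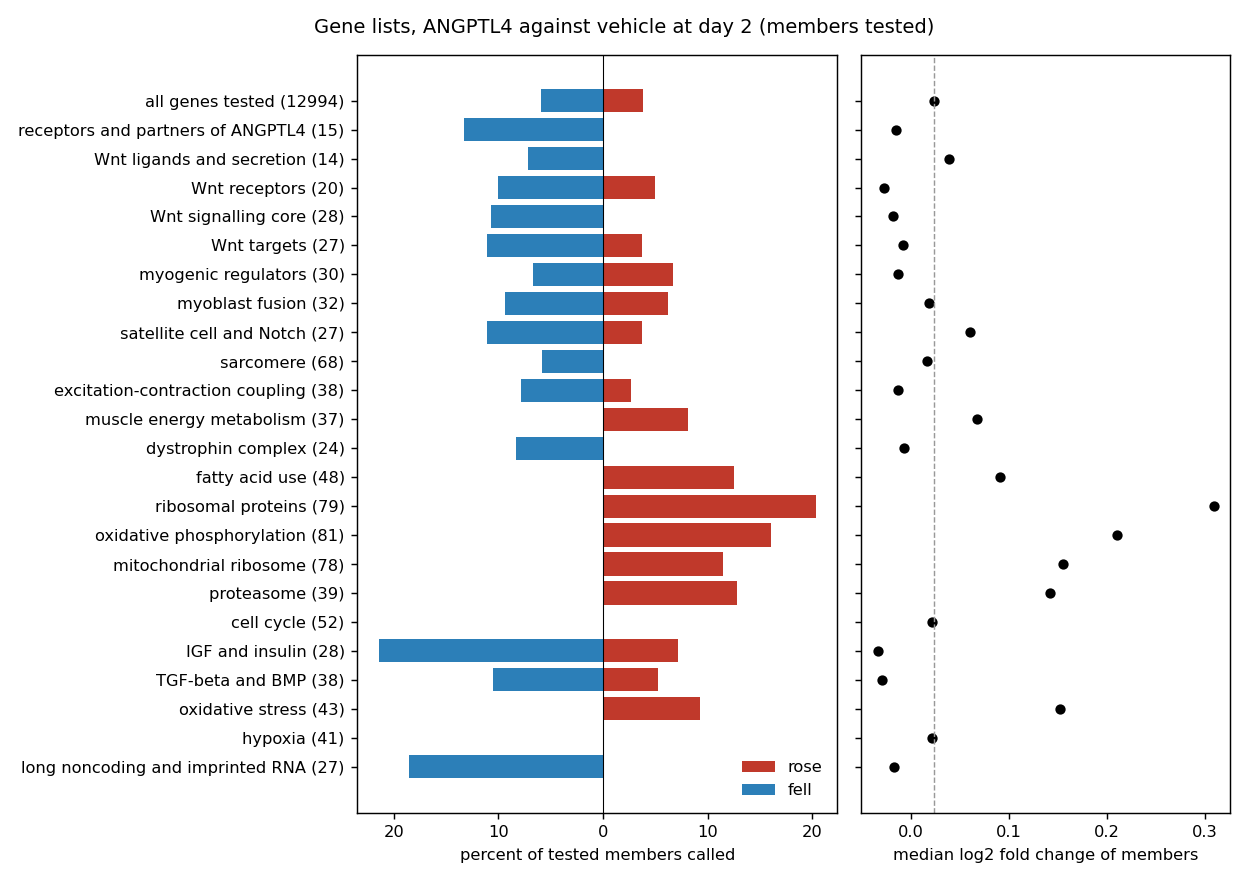
For each gene list, the left panel gives the percent of tested members that rose and that fell, and the right panel the median log2 change, with the dashed line at the median of all 12994 genes (0.02). Ribosomal proteins (20.3% rose, median 0.31) and oxidative phosphorylation (16%, 0.21) lie furthest to the right, while cell cycle and hypoxia lists have 0 calls.

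Of 28 genes of the IGF and insulin pathway, 6 fell (21.4%, against 5.96% of all genes) and 2 rose, and 1 of these calls held. Igf2bp3, an RNA-binding protein of Igf2 mRNA, measured 6.01, 5.91, 4.83 and 6.60 CPM in vehicle and 3.64, 3.72, 3.17 and 3.84 CPM with ANGPTL4 (−0.71, SE 0.18, adjusted p = 0.0138), and the call held. Igf1r, the IGF1 receptor, measured 218, 197, 204 and 233 CPM against 161, 179.7, 177 and 193 CPM (−0.26, SE 0.07, adjusted p = 0.0126), a call lost without vehicle replicate 4 (adjusted p = 0.0532). Foxo4 rose by 0.24 (adjusted p = 0.0139), a call lost without ANGPTL4 replicate 2 or vehicle replicate 4 (adjusted p of 0.0536 and 0.0669). Of 38 genes of TGF-β and BMP signalling, 4 fell (10.5%) and 2 rose. Bmpr2, the type II BMP receptor, measured 367, 363, 384 and 467 CPM against 346, 334, 315 and 299 CPM (−0.29, SE 0.06, adjusted p = 0.00644). Tgfbr3, the co-receptor betaglycan, fell by 0.36 (SE 0.08, adjusted p = 0.00934). Both held. Removal of the trend put Bmpr2 at −0.07 (adjusted p = 0.584), Igf1r at −0.04 (adjusted p = 0.758) and Foxo4 at 0.17 (adjusted p = 0.112), while Igf2bp3 and Tgfbr3 stayed called. Of 32 collagen genes 2 fell (6.25%) and 0 rose, and of 57 other matrix genes 2 rose (3.51%, against 3.86% of all genes) and 0 fell. Spp1, osteopontin, was among the latter (0.23, adjusted p = 0.0198), a call lost without ANGPTL4 replicate 1 or vehicle replicate 2 or 3 (adjusted p from 0.0552 to 0.0899) or with the trend removed (0.12, adjusted p = 0.262).

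Of 43 antioxidant genes, 4 rose (9.3%, against 3.86% of all genes) and 0 fell (median 0.15). Of 50 heat shock and chaperone genes, 6 rose (12%) and 0 fell, and 0 held. The peroxiredoxins Prdx2 (0.28, SE 0.06, adjusted p = 0.00473) and Prdx4 (0.30, SE 0.07, adjusted p = 0.00803) held. Of 45 ATF4 targets 2 rose (4.44%), the serine synthesis genes Psph and Phgdh. Psph measured 22.9, 22.1, 25.3 and 24.4 CPM against 31.2, 28.0, 27.02 and 32.2 CPM (0.32, SE 0.07, adjusted p = 0.00644) and held, whereas Phgdh (0.30, adjusted p = 0.0132) was lost without vehicle replicate 2 (adjusted p = 0.0605). Of 38 immediate early genes 4 rose (10.5%), of which Junb (0.26, SE 0.06, adjusted p = 0.0104) held. Of 38 genes of muscle atrophy and autophagy, 4 rose (10.5%) and 1 fell. Ctsb, a lysosomal protease, measured 615, 557, 556 and 557 CPM against 618, 670.1, 663 and 714 CPM (0.22, SE 0.05, adjusted p = 0.00965). Cblb, a ligase that limits insulin signalling in muscle, fell by 0.32 (SE 0.07, adjusted p = 0.00473). Both held. Derl3, a low-level gene of the protein-folding response, measured 1.33, 1.36, 1.61 and 1.15 CPM against 0.388, 0.676, 0.37 and 0.591 CPM (−1.45, SE 0.37, adjusted p = 0.0145), and held. Without that trend, Prdx2, Prdx4, Phgdh and Junb were at 0.12 to 0.16 and not called (adjusted p from 0.0627 to 0.279), while Psph, Ctsb, Cblb and Derl3 stayed called. Of 41 hypoxia genes, 0 were called, against 9.82% of all genes.

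Further groups were picked by name after the values were seen and carry no test. Over all genes tested, 5.96% fell and 3.86% rose. Of 55 genes named Kmt, Kdm, Nsd, Setd, Chd, Brd or Brwd, most of which write, erase or read histone marks, 23 fell and 1 rose, with a median change of −0.145. Nsd1, an H3K36 methyltransferase, measured 287, 299.9, 283 and 299 CPM in vehicle and 217, 220.4, 225 and 238 CPM with ANGPTL4 (−0.38, SE 0.08, adjusted p = 0.00473). Kmt2c, an enhancer methyltransferase, fell by 0.41 (SE 0.09, adjusted p = 0.00755). Nsd3 fell by 0.29 (adjusted p = 0.002) and Brwd1 by 0.35 (adjusted p = 0.00184), and all 4 calls held. Nsd1 and Brwd1 stayed called with the length and GC trend removed, at −0.17 and −0.18, and Kmt2c and Nsd3 did not (−0.17 and −0.12, adjusted p of 0.0636 and 0.162). The 55 genes have a median transcript of 6654 nucleotides, and 3 of them fell with the length and GC trend removed. Of 17 large ubiquitin ligases named Herc, Hectd, Huwe or Ubr, 10 fell and 1 rose, and 0 fell with that trend removed. Herc1 (−0.35, adjusted p = 0.00184) and Huwe1 (−0.20, adjusted p = 0.00859) were among them, and both held. With the trend removed they were at −0.09 and 0.06 (adjusted p of 0.289 and 0.578). Their median transcript is 7768 nucleotides.

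Hox genes keep positional identity. Of 21 tested, 5 fell and 0 rose, where 5.96% of all genes fell. With the trend removed 5 fell too, at a median transcript of 2121 nucleotides. Hoxc8 measured 11.1, 10.5, 10.3 and 11.1 CPM against 4.75, 4.73, 5.39 and 7.83 CPM (−0.94, SE 0.23, adjusted p = 0.015). Hoxc5 measured 19.9, 17.9, 19.4 and 18.5 CPM against 8.59, 11.03, 10.3 and 12.8 CPM (−0.84, SE 0.17, adjusted p = 0.0053). Hoxc6 fell by 0.42 (SE 0.11, adjusted p = 0.019). The 3 are neighbours in 1 gene cluster, and all 3 calls held. Predicted genes named Gm fell in 44 of 240 cases and rose in 1, and 38 fell with the trend removed. Of these 240, 193 had an annotated length, and the others were not corrected in that fit. Those with few counts may have passed the count filter only through a group where they were high. The counts of 44 and 1 therefore do not measure the response.

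The summed level of the 15 skeletal muscle markers, Ttn among them, was 28759 to 33014 CPM in vehicle and 23239 to 23810 CPM with ANGPTL4. Without Ttn that sum was 15000 to 16438 CPM in vehicle and 14752 to 16603 CPM with ANGPTL4, with overlap. Of the 15 markers 1 rose and 2 fell (20% called, against 9.82% of all genes), and 12 of the 15 changes were above 0 (median 0.09). The rise of Myod1 and the fall of Mef2c did not hold, as given above. Of 18 fibroblast markers 15 were tested and 0 called, at 11317 to 13005 CPM in all in vehicle and 12201 to 13346 CPM with ANGPTL4. Of 13 smooth muscle markers, which muscle cells in part share, 11 were tested and 0 called, at 6794 to 7538 CPM against 7211 to 8442 CPM. Of 14 endothelial markers 4 were tested, at 8.93 to 12.02 CPM against 8.41 to 9.99 CPM, and of 17 immune markers 3, at 4.95 to 6.65 CPM against 4.65 to 6.798 CPM, with 0 calls in either. Of 14 adipocyte markers 5 were tested, at 68.0 to 86.0 CPM in all against 82.7 to 97.5 CPM, while Adipoq, Plin1 and Fabp4 were not analysed here. Lpl, which was not called, made up most of that sum, on average 51.7 of 77.1 CPM in vehicle and 59.3 of 89.5 CPM with ANGPTL4. Among the 5, Cebpa rose (20%, against 3.86% of all genes). Its call did not hold and was lost with the length and GC trend removed. Of 19 bone and cartilage markers 8 were tested, at 1591 to 1868 CPM against 1903 to 2138 CPM. Of the 8 tested bone and cartilage markers, 1 rose and 2 fell, 37.5% called against 9.82% of all genes. The rise was Spp1, whose call did not hold, as given above. Only 3 of the 8 changes were above 0 (median −0.05), so the higher sum does not describe most of these markers. Col10a1, a cartilage collagen at 2.04 to 2.64 CPM in vehicle and 0.485 to 1.33 CPM with ANGPTL4, fell by 1.71 (SE 0.29, adjusted p = 0.00184) and held. Runx2, a bone lineage factor, fell by 0.30 (adjusted p = 0.0124), a call lost without vehicle replicate 4 (adjusted p = 0.0641) and with the length and GC trend removed (−0.19, adjusted p = 0.134). The part of other cell types in the result was not tested.

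Cells given ANGPTL4 were also set beside cells given LA at day 2, which asks where the protein and the fatty acid leave different transcript levels. Of 12994 genes 12 were called (0.0924%), 4 higher and 8 lower with ANGPTL4. Angptl4 itself stood out. It measured 82.4, 82.7, 81.8 and 79.8 CPM with LA and 21.05 to 22.4 CPM with ANGPTL4 (log2 difference −1.92, SE 0.06, adjusted p = 2.04e-21). Cpt1a, which carries fatty acids into mitochondria, measured 142, 141, 141 and 141 CPM with LA and 87.4 to 92.9 CPM with ANGPTL4 (−0.65, SE 0.05, adjusted p = 3.04e-11). Klf11 (−0.68, adjusted p = 0.000653) and Plin2 (−0.29, adjusted p = 0.00352) were also lower with ANGPTL4. Prkg2, a cGMP-dependent kinase, was higher, at 200.2 to 214 CPM against 153 to 172 CPM with LA (0.35, SE 0.05, adjusted p = 4.21e-05). These 5 calls held when each of the 8 libraries was left out.

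The other 5 called genes named by the rule did not hold. Ucp2 (−0.43, adjusted p = 0.0203) was lost without ANGPTL4 replicate 2 or 3 or LA replicate 1 or 2 (adjusted p from 0.0548 to 0.0918). Spaca6 (−0.54, adjusted p = 0.036) was lost without ANGPTL4 replicate 1, 2 or 3 or LA replicate 1 or 2 (from 0.0622 to 0.275). Oxct1 (0.31, adjusted p = 0.00537) was lost without ANGPTL4 replicate 3 or LA replicate 1 or 2 (from 0.0517 to 0.12). Dusp6 (0.30, adjusted p = 0.0154) was lost without ANGPTL4 replicate 2 or 3 or LA replicate 1 or 2 (from 0.0637 to 0.255). Gbp9 (0.64, adjusted p = 0.0348) was lost without ANGPTL4 replicate 1 or 3 or LA replicate 1 or 2 (from 0.0622 to 0.275). The count rests on which libraries are in: it was 363 without LA replicate 4, 159 without LA replicate 3, 102 without ANGPTL4 replicate 4 and 6 at the fewest. For the genes that led the comparison with vehicle, Ttn measured 12677, 13557, 6402 and 12764 CPM with LA, so LA replicate 3 lay below every ANGPTL4 library. The difference from ANGPTL4 was −0.54 (SE 0.22, adjusted p = 0.316), and that of Malat1 was −1.05 (SE 0.43, adjusted p = 0.306). With a standard error of this size the 2 treatments are not shown to act alike on them.

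Whether the effect of ANGPTL4 over vehicle was the same at day 6 was tested as a difference between the 2 effects. It was called for 36 genes (0.277%), 11 with a higher and 25 with a lower effect at day 6. Genes that had fallen at day 2 were among the former. B3galt2, a galactosyltransferase, averaged 7.56 CPM in vehicle and 3.66 CPM with ANGPTL4 at day 2 and 7.58 and 7.997 CPM at day 6, so the effect moved from −1.06 to 0.08 (difference 1.14, SE 0.26, adjusted p = 0.0459). The effect on Fmn1 moved from −0.37 to 0.07 (adjusted p = 0.0354), on Adgrl3 from −0.36 to 0.05, on Tmf1 from −0.28 to 0.12 and on Rassf8 from −0.34 to 0.05, with adjusted p of 0.0382, 0.0382 and 0.0444 for the last 3. Naalad2 went from −0.08 to 0.51 (adjusted p = 0.0382). In the other direction, Tax1bp3 moved from 0.45 to −0.14 (adjusted p = 0.0419), Ccdc85b from 0.41 to −0.32, Tmem147 from 0.37 to −0.28 and Bok from 0.29 to −0.30 (each adjusted p = 0.0382). Doc2g moved from 0.62 to −0.48 and Tmem176b from 0.42 to −0.63 (each adjusted p = 0.0459).

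None of these 12 calls held in all 16 fits that left out 1 library. Those fits called 0 to 312 genes, with 0 without ANGPTL4 day 2 replicate 3, ANGPTL4 day 6 replicate 1 or 4, vehicle day 2 replicate 4 or vehicle day 6 replicate 1 or 2, and 312 without ANGPTL4 day 2 replicate 1. With the replicate block or with the length and GC trend removed, 0 genes were called (2298 and 1639 at an unadjusted p under 0.05), against 341 with DESeq2 and 19 with limma-voom. The effect on Ttn was −1.02 at day 2 and −0.07 at day 6, a difference of 0.95 (SE 0.31, adjusted p = 0.124). Malat1 averaged 17181 and 6380 CPM at day 2 and 8109 and 6223 CPM at day 6, with a difference of effects of 1.05 (SE 0.60, adjusted p = 0.363). For these 2 genes a difference between the days was not detectable with 4 libraries a group.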

How the data were processed

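RNA of 24 C2C12 libraries was sequenced from 3′ ends (QuantSeq, RNA integrity above 7, per the labels' protocols). Trimmomatic, STAR 2.7.1a, HTSeq 0.9.1, DESeq2, DESeq and mouse build mm39 are named per the submitters' processing notes. Counting and strand settings are not given in the sources used here. The deposited values are raw read counts for 14693 gene symbols, whose lowest total over 24 libraries was 51.

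Low counts were removed with filterByExpr (1699 genes), leaving 12994. All 24 libraries were fitted with edgeR 4.0.16 (TMM scaling, robust quasi-likelihood, 18 residual degrees of freedom, R 4.3.3), and every adjusted p is from this test with Benjamini-Hochberg adjustment over all genes tested, called under 0.05. Totals are given in the report; their number limits precision for low genes. CPM uses TMM-scaled totals. Standard errors (SE) are approximate. On counts simulated for this comparison with 200 changed genes, the fit was checked before use. Transcript length, end GC (last 500 nucleotides) and gene class came from GENCODE M21 (GRCm38), another build, for 14319 symbols (97.5%), so no gene coordinates are given. Genes without a match, Atp5pb, Mir1a-1hg and Ubb-ps among them, were left uncorrected where the trend was removed. RefSeq sequences keep their own build.

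Alternatives were DESeq2 1.42.0, its size factors, library totals, limma-voom (limma 3.58.1), 2 filters (none, and 5 CPM in at least 4 libraries), only the compared groups, the replicate number as a block, and each library left out. Chosen after seeing the data were thinning to the smallest library (6.101 M), removal of length and GC trends (mgcv 1.9.3), and leaving out LA day 2 replicate 3 and ANGPTL4 day 6 replicate 1. The labels state no pairing by replicate number. Deviations from the group mean in ANGPTL4 and vehicle libraries of the same number correlated at −0.136, 0.0304, 0.0924 and 0.0509. Those of unlike numbers reached −0.168 and 0.181. These values cannot exclude a paired design.

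Named genes came from a rule: 25 genes whatever their values, the 12 highest and 12 lowest folds with at least 5 CPM and no overlap, the 5 lowest p-values each way, up to 4 called members a list, and 6 highest and 6 lowest in the other comparisons. Of these, mainly genes whose calls held were printed, so they are steadier than the rest. Some genes the rule names are not reported here. Genes and lists were chosen with earlier results of these data known.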

Additional observations from a re-analysis of the deposited data

Results flagged for a closer look

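In 232 sets of 4 libraries, 1 library lay far from the other 3 in 23 sets, where chance flags about 5% of sets. Among vehicle libraries, replicate 4 was the one apart for Myc (41.3 CPM), Pax7 (38.03), Psmb4 (81.7), Kmt2c (274.7), Prkg2 (198), Adgrl3 (138), Tmf1 (194.5), Rassf8 (46.6) and Runx2 (88.7). Vehicle replicate 2 was apart for Ccnd1 (69.97 CPM), Mymk (462), Atp5pb (179) and Naalad2 (10.6), replicate 3 for Airn (4.93) and replicate 1 for Ctsb (615). Among ANGPTL4 libraries, replicate 4 was apart for Malat1 (11730 CPM), Mir23a (0.369), Lrrtm2 (9.61), 4930412M03Rik (4.14), Apbb2 (134.5), Col10a1 (1.33) and Rpl15 (248), and replicate 2 for Dusp6 (42.95).

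The effect of ANGPTL4 over vehicle differed between day 6 and day 2 for 16 named genes by the test of that difference. On the log2 scale it was lower at day 6 for Tax1bp3 (−0.59), Fzd2 (−0.42), Cyc1 (−0.48), Phgdh (−0.51), Doc2g (−1.10), Tmem176b (−1.05), Ccdc85b (−0.73), Tmem147 (−0.65) and Bok (−0.60). It was higher at day 6 for Fmn1 (0.44), Nsd3 (0.34), B3galt2 (1.14), Naalad2 (0.59), Adgrl3 (0.41), Tmf1 (0.39) and Rassf8 (0.39). None of these 16 calls stayed with the replicate block or with the length and GC trend removed, where 0 genes were called.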

How the results depend on the processing

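For ANGPTL4 against vehicle, 1276 calls became 417 with the length and GC trend removed, 685 in a fit of vehicle and ANGPTL4 at day 2 alone (13.9% of them rises) and 713 after thinning, and 712 to 1192 when 1 library was left out, the fewest without vehicle replicate 4 (821 without ANGPTL4 replicate 4). The share of rises, 39.3%, was 27.8% with DESeq2, 27.1% with its size factors and 54.2% with library totals. For ANGPTL4 against LA, 12 calls became 32 with DESeq2, 31 with the trend removed, 236 without LA day 2 replicate 3 and ANGPTL4 day 6 replicate 1, 22 with limma-voom, 6 with only the compared groups and 6 to 363 with 1 library left out. For day 6 against day 2, 36 calls became 64 with the 5 CPM filter, 341 with DESeq2, 56 with its size factors, 60 without those same libraries, 161 with library totals, 19 with limma-voom, 0 with the trend removed and 0 to 312 with 1 library left out. The replicate block gave 1068, 8 and 0 calls in the 3 comparisons, although the labels state no pairing by replicate number. Huwe1 changed sign with the trend removed (log2 change 0.0564, adjusted p = 0.578). The difference in library totals was 3.36 to 5.82 M with 1 library left out. The causes were not tested. Of 89 named genes called against vehicle, 57 held without any 1 library and 35 in every alternative. Genes without an annotated length were not corrected in the trend fit. Depth and the count filter limit the genes under 1 CPM on average over the 24 libraries, of which 10.9% fell and 0 rose.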
